A study of Mus musculus with 80 samples.

Results

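Bivalent regions carry H3K4me3, the methylation of histone H3 at lysine 4 found at promoters, together with H3K27me3, the Polycomb mark of repressed genes. The regions described here are those without a peak of MLL2 (Kmt2b), one of the enzymes that place H3K4me3. They were H3K4me3 peaks of wild-type mouse embryonic stem cells (mESCs) from 1 experiment that overlapped by at least 1 bp an H3K4me3 peak of the other wild-type experiment and an H3K27me3 peak of each experiment, and no wild-type MLL2 peak. There were 2033 such regions, 48.7% of 4172 bivalent regions and 4.72% of 43063 H3K4me3 regions. The other 2139 bivalent regions held an MLL2 peak. Presence of both marks in wild-type cells and absence of an MLL2 peak were therefore set by the selection and are not results.

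In mESCs, bivalent chromatin lies mostly at promoters of developmental genes that are silent or weakly expressed. Trithorax-type complexes, to which MLL2 belongs, methylate lysine 4. Polycomb repressive complex 2, with its subunit Suz12, methylates lysine 27, and Polycomb repressive complex 1, with its subunit Ring1b, binds that mark and ubiquitylates histone H2A. RNA polymerase II phosphorylated at serine 5 of its tail (Ser5P) marks initiating or paused polymerase and is known to occupy many Polycomb-bound promoters in these cells.

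The main cells were C57Bl/6 mESCs of the genotype Mll2F/F:CreERT2/+, grown on gelatin, with no feeder cells, in medium with serum and LIF. WT cells received carrier, and KO cells received 4-hydroxytamoxifen for 96 hours to delete Mll2, so that the drug and the deletion cannot be told apart. All of these cells, WT included, carried the floxed Mll2 alleles and the Cre fusion. A second line, V6.5, was compared as wild type and as a catalytic-dead mutant (CD, Y2602A), with both kept on irradiated mouse embryonic fibroblasts that were removed by pre-plating. ChIP-seq (sequencing of DNA bound by a protein or mark) and ATAC-seq (sequencing of open chromatin) were read from the authors' peak lists, 1 list per library.

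H3K4me3, H3K27me3, Suz12 and Ring1b had 2 libraries per genotype, called experiments 1 and 2, and ATAC-seq had 3. Other targets, both V6.5 genotypes and both re-ChIP orders had 1. The H3K4me3 antibody was not the same in experiments 1 and 2. The MLL2 list held 11085 peaks in WT and 264 in KO. Other lists held between 2242 peaks (Ring1b, WT, experiment 2) and 50764 peaks (CTCF, KO), apart from the 100 bp windows of re-ChIP. These lists give no read counts, so sequencing depth is unknown and a list of a shallower library may lack weak peaks. Whether libraries came from separate cultures is not given in the sources used here, and p-values cover the variation among these libraries only. At the level of the whole gene, Kmt2b RNA was 9.44 and 11.8 FPKM in the WT libraries and 9.46 and 9.49 FPKM in the KO libraries. Which exons were deleted is not given in the sources used here, so these levels check nothing about the deletion. The stem cell marker genes Pou5f1, Nanog, Sox2, Klf4, Esrrb and Zfp42 lay between 39.2 and 1439 FPKM in the 4 libraries of undifferentiated cells, and the fibroblast genes Col1a1, Col1a2, Col3a1 and Thy1 between 0 and 4.05 FPKM.

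Bivalent regions without an MLL2 peak were narrower than those with one and had weaker H3K4me3, with H3K27me3 of like strength. Their median width was 1691 bp, with quartiles of 1323 and 2217 bp and a range from 545 to 21216 bp. Bivalent regions with an MLL2 peak had a median width of 2450 bp. The median WT H3K4me3 score was 931 in experiment 1 and 682 in experiment 2 without MLL2, against 3100 in both experiments with MLL2. Scores are those of the authors' peak calls, at least 50 in each list, and many strong peaks share a value of 3100, so the difference at the top of the scale cannot be read. For H3K27me3 the medians were 687 and 143 without MLL2 and 688 and 145 with MLL2, in experiments 1 and 2.

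The absence of an MLL2 peak was seldom a matter of a few bases. The nearest of these regions lay 168 bp from an MLL2 peak, 48 lay within 1000 bp, 359 (17.7%) lay within 5000 bp, and the median distance was 22790 bp. On the other side of the boundary, the smallest overlap with an MLL2 peak was 210 bp and the lowest MLL2 score was 50.1, with a median of 136. Among regions without MLL2, 410 pairs of neighbours were less than 5000 bp apart. Of these regions, 329 lay within 5000 bp of a bivalent region with an MLL2 peak. No such counts were made for other H3K4me3 regions, so they cannot be read as clustering. The share of regions without MLL2 among all bivalent regions ranged over the autosomes and X from 36% on X, with 36 regions, to 56.2% on chromosome 17. Genes at these positions were not assigned here, and all coordinates are those of mm9, counted from 1.

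Both marks were recovered in sequential ChIP at most of these regions. In re-ChIP, chromatin precipitated with a first antibody is precipitated again with a second, so that a signal requires both marks on the same fragments. Of the 2033 regions, 1503 (73.9%, 95% Wilson interval 72.0 to 75.8) held an enriched window when H3K27me3 was precipitated first, and 1102 (54.2%, 52.0 to 56.4) when H3K4me3 was first. Windows were present in both orders at 1002 regions (49.3%), in 1 order at 601 (29.6%) and in neither at 430 (21.2%). A window in either order was found at 78.8% of regions without MLL2, 97.0% of bivalent regions with MLL2 and 2.29% of 20951 H3K4me3 regions that had neither H3K27me3 nor MLL2. This share was 52.1% among 5303 regions called bivalent from experiment 1 alone. Intervals here and elsewhere cover counting of regions only, not the spread between libraries.

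In KO cells, most bivalent regions without an MLL2 peak had no H3K4me3 peak. In experiment 1, 823 regions (40.5%, 38.4 to 42.6) held a KO H3K4me3 peak and 1210 (59.5%) did not. In experiment 2, 594 (29.2%, 27.3 to 31.2) held one and 1439 (70.8%) did not. Over all H3K4me3 regions with a WT peak, 36.2% in experiment 1 and 35% in experiment 2 had no KO peak. Both experiments thus showed a larger share without a KO peak here than over all regions. Since the WT share was fixed at 100% by the selection, no test was made. The KO H3K4me3 lists were the shorter, with 30514 peaks against 43063 in experiment 1 and 28936 against 39921 in experiment 2. With equal numbers of top peaks the WT shares were 90.9% and 87.8%, and the KO shares stayed at 40.5% and 29.2%. The V6.5 wild-type library, which played no part in the selection, held an H3K4me3 peak at 1990 of the 2033 regions (97.9%).

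The 2 experiments mostly picked the same regions. A KO peak was present in both at 584 regions, in experiment 1 alone at 239, in experiment 2 alone at 10 and in neither at 1200. A missing KO peak in both experiments was found at 29.3% of all regions with WT peaks in both, and a KO peak in both at 63.9%. Among bivalent regions with MLL2, the KO peak was more common, at 83.5% in experiment 1 and 70.6% in experiment 2, a difference of 43.0 and 41.4 percentage points.

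**Figure D1:**
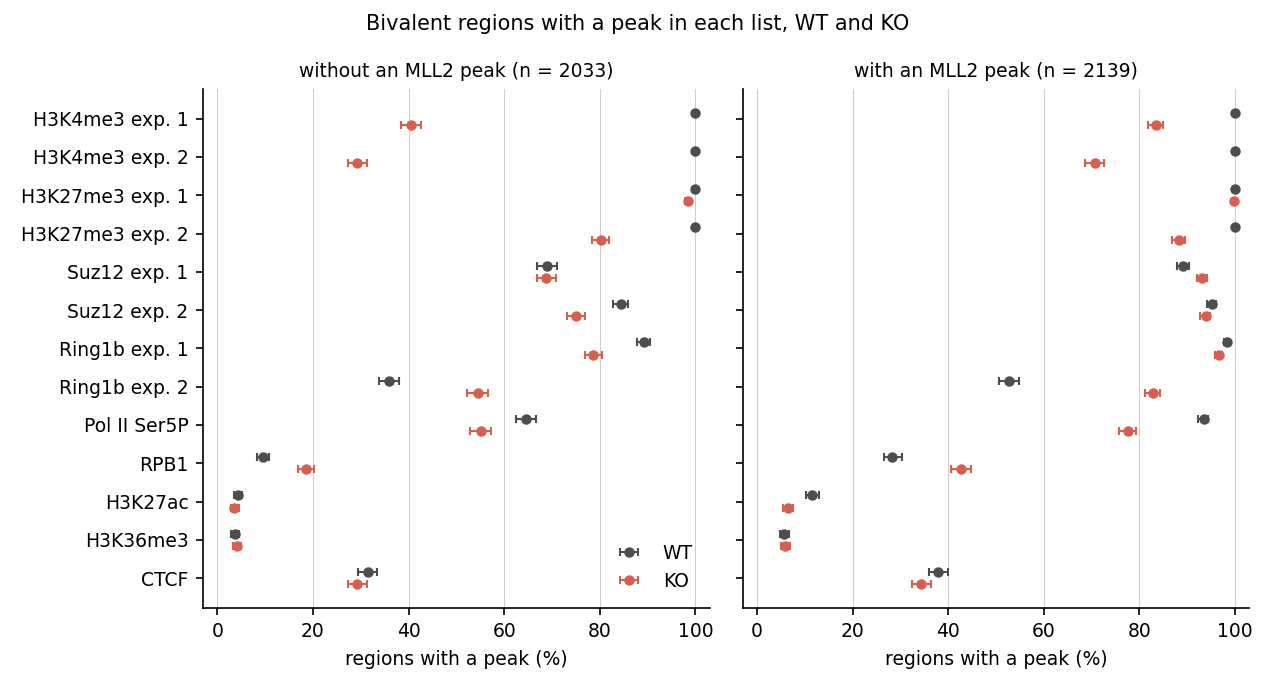
Share of bivalent regions with a peak (x axis, percent) in each deposited list (y axis), without an MLL2 peak (left, 2033 regions) and with one (right, 2139 regions); black points are WT, red points KO, and bars are 95% Wilson intervals over regions. WT H3K4me3 and H3K27me3 are at 100% by selection, and KO H3K4me3 without MLL2 lies at 40.5% and 29.2%.

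At like widths the difference was present but smaller. Among regions from 1500 to under 2000 bp wide, 43.6% of 608 without MLL2 and 67.9% of 474 with MLL2 held a KO H3K4me3 peak in experiment 1, and 26.5% and 44.5% in experiment 2, a mean difference of -21.2 percentage points against -42.2 over all widths. From 2000 to under 3000 bp, the shares were 65.1% of 439 and 88.3% of 967 in experiment 1. Within the regions without MLL2, the KO share climbed from 4.08% of 147 regions under 1000 bp to 84.9% of 218 regions of 3000 bp or more in experiment 1, and from 3.40% to 73.9% in experiment 2. Bivalent regions with the weakest MLL2 peaks, the lowest of 4 equal groups by MLL2 score, still held a KO peak in 69.5% and 52.3% of cases.

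At like WT H3K4me3 scores the order was not the same. Between scores of 931 and 2010 in experiment 1, the third of 4 equal groups of the regions without MLL2, a KO peak was present in experiment 2 at 32.5% of 508 regions without MLL2 and at 18.7% of 219 with MLL2. In the highest group, from 2010 upward, the shares were 68.8% of 509 and 79.8% of 1816. The scale ends near 3100, and the median of the regions with MLL2 is at that end, so the highest group does not match strength. In the second group, from 354 to 931, it was present at 11.2% of 508 regions without MLL2 and at 14.5% of 76 with MLL2. The order in this group was not steady. For KO peaks of experiment 1 the shares were 17.5% without and 15.8% with MLL2. With groups by experiment 2 scores they were 17.9% and 12.1% in KO experiment 1, and 11.0% and 10.3% in KO experiment 2. In the lowest group of experiment 1 scores, a KO peak of experiment 2 was present at 4.33% of the regions without MLL2. Too few with MLL2 fell there to compare. Among the regions without MLL2, the score of one experiment thus ordered the KO outcome in the other one.

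**Figure D2:**
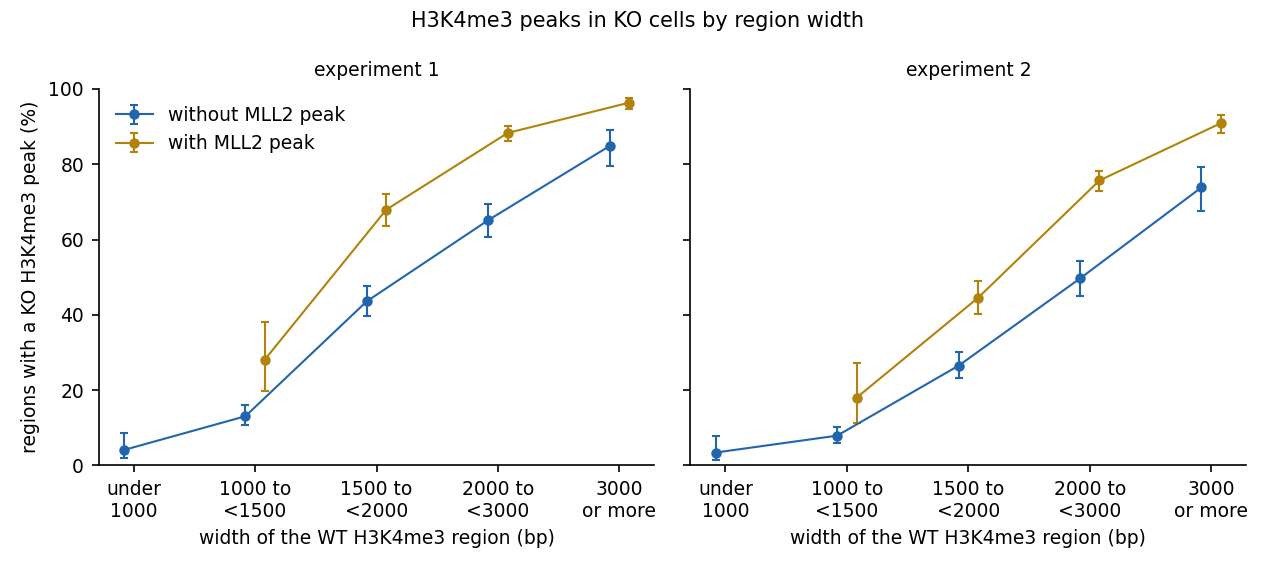
Share of bivalent regions with a KO H3K4me3 peak (y axis, percent) by width of the WT H3K4me3 region (x axis, bp) in experiment 1 (left) and experiment 2 (right); blue, without an MLL2 peak; ochre, with one; bars are 95% Wilson intervals over regions, and bins of under 20 regions are left out. Both classes climb with width, and from 1500 to under 2000 bp the regions without MLL2 stand at 43.6% and 26.5%.

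H3K27me3 was kept at most of these regions. In KO cells 2000 regions (98.4%) held an H3K27me3 peak in experiment 1 and 1631 (80.2%, 78.4 to 81.9) in experiment 2. No KO peak was found at 1.62% and 19.8% of the regions, close to the 2.16% and 17.6% found over all H3K4me3 regions with a WT H3K27me3 peak. The mean share of a region's length under an H3K27me3 peak stood at 85.7% (WT) and 95.1% (KO) in experiment 1, and stood at 56.3% (WT) and 55.1% (KO) in experiment 2. When an overlap of at least 0.5 of the shorter interval was asked for, the KO share exceeded the WT share by 1.75 percentage points as a mean of both experiments. In experiment 1 the KO list was the longer, with 31020 peaks against 19820, and median widths of 1588 and 1299 bp. At bivalent regions with MLL2 the mean share of length was 85.1% (WT) and 96.3% (KO) in experiment 1. In experiment 2 it was 49.7% and 60.9%.

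By combination of marks, the most frequent KO state was H3K27me3 alone. In experiment 1, 1186 regions held H3K27me3 without H3K4me3, 814 held both marks, 9 H3K4me3 alone and 24 neither. In experiment 2 the counts were 1139, 492, 102 and 300. H3K27me3 alone thus stood at 58.3% and 56.0% of regions without MLL2, against 16.5% and 25.2% of bivalent regions with MLL2.

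In V6.5 cells with catalytic-dead MLL2, H3K4me3 was missing from about as large a share of these regions as of all regions. The H3K4me3 share went from 97.9% in V6.5 wild type to 66.0% (63.9 to 68.0) in CD, and H3K27me3 from 96.3% to 89.1%. Of the 1990 regions with a V6.5 wild-type H3K4me3 peak, 650 (32.7%) had none in CD, against 33.2% over all H3K4me3 regions. That share is at the background. Bivalent regions with MLL2 had no CD peak in 72 of 2137 cases (3.37%). For H3K27me3, 189 of 1958 regions (9.65%) had no CD peak, against 26% of all regions. The CD H3K4me3 list was the shorter, with 25891 peaks against 41008 in V6.5 wild type. With equal numbers of top peaks from both V6.5 lists the fall in H3K4me3 was 19.1 percentage points, and with the higher-scoring 50% of each list it was 50.1. By the wider definition from experiment 1 alone, the H3K27me3 share fell by 17.4 percentage points in CD.

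The regions that had no peak in CD were largely those with none in KO. Of the 650, 614 (94.5%, 92.4 to 96.0) also belonged to the 1200 regions with no KO peak in the conditional line. Conversely, 22 of 578 regions (3.81%) with KO peaks in both experiments lacked a CD peak, against 614 of 1163 (52.8%) with KO peaks in neither. This overlap was not particular to regions without MLL2. Of the 72 bivalent regions with MLL2 that lost the peak in CD, 61 had no KO peak in either experiment. With MLL2 the 2 shares were 0.334% of 1499 and 17.8% of 343. The overlap over all H3K4me3 regions was not computed. The CD state of marks was both at 1270 regions, H3K27me3 alone at 541, H3K4me3 alone at 71 and neither at 151. The 2 mutants differ in line, feeder cells and allele, and these cannot be told apart.

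Suz12 occupied most of these regions in both genotypes. Suz12 peaks were found at 69.0% and 84.4% of regions in WT experiments 1 and 2, and at 68.8% and 75.0% in KO. The WT shares with MLL2 were 89.2% and 95.2%. The means differed by -4.77 percentage points (exact permutation test over libraries, two-sided, p = 0.667, where 2 against 2 cannot go below 0.333). The test did not pair libraries by experiment, so the gap between experiments enters it. Of regions with a WT Suz12 peak, 8.35% and 14.1% had none in KO, near the 7.28% and 15.9% over all regions. Both were above the 1.52% and 2.65% at bivalent regions with MLL2. Of regions without a WT Suz12 peak, 18.1% and 16.0% had one in KO, against 3.61% and 2.36% over all regions, most of which are not bivalent. For regions without MLL2, leaving out experiment 2 gave a KO minus WT difference of -0.15. Leaving out experiment 1 gave -9.39, so that nearly all of the difference came from experiment 2.

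Ring1b shares moved in opposite directions in the 2 experiments, together with the lengths of the lists. In experiment 1 it was found at 89.3% of regions in WT against 78.7% in KO, while in experiment 2 it was found at 35.9% against 54.5%. The mean difference was 3.96 percentage points (exact permutation test, two-sided, p = 1), with -10.6 in experiment 1 and 18.5 in experiment 2. This test too did not pair libraries by experiment, so the wide gap between experiments enters it. The Ring1b lists moved with these shares, from 10118 peaks in WT to 8841 in KO in experiment 1, and from 2242 to 4640 in experiment 2. At equal list lengths the shares were 87.2% in WT against 78.7% in KO in experiment 1 and 35.9% against 35.2% in experiment 2, a mean difference of -4.62, so that the higher KO share of experiment 2 was then not present. Of regions with a WT Ring1b peak, 13.5% and 1.23% had none in KO, against 23.1% and 1.3% over all regions. Of those without one, 13.3% and 29.6% had a KO peak, against 3.84% and 6.44% over all regions, most of which are not bivalent. At bivalent regions with MLL2 but no WT Ring1b peak, 44.7% of 38 and 64.9% of 1012 had a KO peak. With MLL2 and a WT Ring1b peak, 2.48% of 2101 and 1.06% of 1127 had no KO peak.

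RNA polymerase II with Ser5P was present at 1313 regions (64.6%, 62.5 to 66.6) in WT and at 1120 (55.1%, 52.9 to 57.2) in KO. A WT peak had no KO counterpart at 374 regions and a KO peak appeared without a WT peak at 181. These are 28.5% of the 1313 and 25.1% of the other 720, against 13.1% and 39.5% over all regions. Ser5P was thus missing in KO more often than over all regions and appeared less often, while the KO list was the longer, with 42660 peaks against 30067. With equal numbers of top peaks the KO share was lower by -21.0 percentage points in place of -9.49. Among the 5303 regions called bivalent from experiment 1 alone the difference had the opposite sign, at 2.23. At bivalent regions with MLL2, Ser5P stood at 93.4% in WT and 77.6% in KO, and 19.4% of its WT peaks had none in KO.

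Total polymerase, read from its largest subunit RPB1, was rare here. It stood at 192 regions (9.44%) in WT and 377 (18.5%) in KO, with 194 regions that had a peak in KO alone. That is 10.5% of the regions without a WT peak, against 21.4% over all H3K4me3 regions, while 4.69% of those with a WT peak had none in KO, against 3.62%. The RPB1 list went from 29048 to 41139 peaks. With equal numbers of top peaks the difference was 4.48 percentage points in place of 9.10.

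Marks of active enhancers, promoters and transcribed gene bodies were found at few of these regions. H3K27ac, the acetylation of active promoters and enhancers, lay at 87 regions (4.28%) in WT and 72 (3.54%) in KO. Of the 87, 35 (40.2%) had no KO peak, against 21.4% over all regions, and 1.03% of the others had one in KO alone, against 3.13%. With equal numbers of top peaks the difference had the opposite sign, at 0.49 percentage points. Of 245 bivalent regions with MLL2 and a WT H3K27ac peak, 53.1% had no KO peak. H3K36me3, which marks transcribed gene bodies, lay at 3.59% of regions in WT and 4.08% in KO. Of its WT peaks here 16.4% had no KO peak, against 13.5% over all regions, and 1.12% of regions without one had a KO peak, against 2.48%. CTCF, a boundary factor of chromatin loops, lay at 31.4% in WT and 29.2% in KO, and 9.86% of its WT peaks here had no KO peak, against 7.86% over all regions. A CTCF peak in KO alone stood at 1.29% of the rest, against 2.37%. Each of these targets had 1 library per genotype and no replicate check.

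These regions were less often open than bivalent regions with MLL2, in each of the 6 ATAC-seq libraries. A peak was found at 27.4%, 35.7% and 31.6% of regions in the 3 WT libraries and at 19.5%, 28.4% and 30.6% in the 3 KO libraries. WT and KO overlapped, since KO replicates 2 and 3 lay above WT replicate 1. The mean was 31.6% ± 4.16 (SD, n = 3) in WT and 26.2% ± 5.87 (SD, n = 3) in KO, a difference of -5.38 percentage points (exact permutation test, two-sided, p = 0.4, where 3 against 3 cannot go below 0.1). Without KO replicate 1 the difference was -2.05 and without WT replicate 2 it was -3.30. With equal numbers of top peaks it was -2.54 (exact p = 0.1). Bivalent regions with MLL2 were open in 61.9%, 72.0% and 68.6% of cases in WT and 51.1%, 66.7% and 67.3% in KO.

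Within each library the share without MLL2 was lower than the share with MLL2 by 31.6 to 38.2 percentage points, 35.7 as a mean. This held in 6 of 6 libraries (exact sign-flip permutation test, two-sided, p = 0.03125, the smallest that 6 libraries can give). Among regions from 1500 to under 2000 bp wide the gap was 12.9 to 23.6 percentage points, 19.7 as a mean, again in 6 of 6 libraries (exact sign-flip permutation test, p = 0.03125). The gap did not differ detectably between genotypes, at 0.42 percentage points KO minus WT (exact permutation test, p = 0.9). Within this width range the difference was 4.40, with a smaller gap in KO (exact permutation test, p = 0.1). At like WT H3K4me3 scores the gap was smaller, with no test made. Between scores of 931 and 2010 in experiment 1, the mean ATAC-seq share was 35.96% without MLL2 and 42.16% with MLL2 in WT. In KO it was 27.9% and 33.2%. Between scores of 682 and 1562 in experiment 2, the shares were 37.6% and 39.9% in WT. In KO they were 30.5% and 30.2%. In the highest group of experiment 1, which does not match strength, they were 56.4% and 72.8% in WT. At 1071 regions (52.7%) no library had a peak, and at 259 (12.7%) all 6 did. Peaks in all WT libraries and no KO library were found at 32 regions (1.57%, against 0.936% of all regions), and the reverse at 1 region (0.0492%, against 0.251%).

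**Figure D3:**
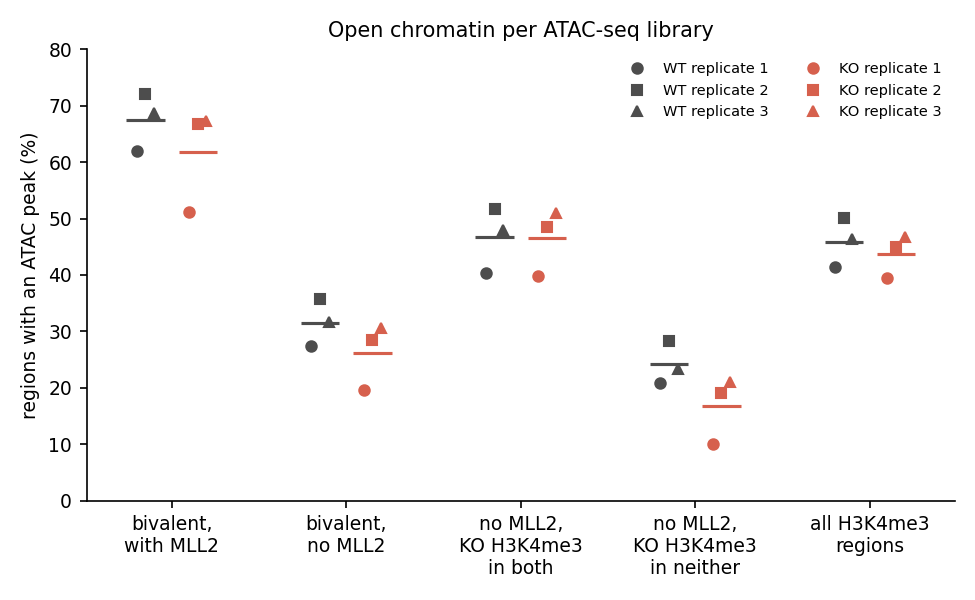
Share of regions with an ATAC-seq peak (y axis, percent) for 5 classes of region (x axis); each point is 1 library (circle, square and triangle for replicates 1 to 3; grey WT, red KO) and lines are means. Regions without MLL2 lie between 19.5% and 35.7%, below the regions with MLL2 in each library.

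The 584 regions with a KO H3K4me3 peak in both experiments, called retained here, and the 1200 with none in either, called lost, differed in other lists too. The H3K4me3 lists of KO cells chose these classes, so only other lists are compared, with no test. Retained regions were wider, with a median of 2270 bp against 1444 bp, and had higher WT H3K4me3 scores, with medians of 2406 and 481 in experiment 1. Their H3K27me3 scores were alike, with medians of 603 and 687.

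Widths and WT H3K4me3 scores thus moved with the classes, and values at like width are given further on. Ser5P differed between genotypes in opposite directions in the 2 classes, while RPB1 was more common in KO in both. Ser5P was present at 74.0% (WT) against 81.8% (KO) of retained regions, and at 57.8% against 39.1% of lost ones. RPB1 was found at 27.2% (WT) and 50.9% (KO) of retained regions, and at 1.58% and 4.33% of lost ones. Over all H3K4me3 regions Ser5P stood at 47.4% (WT) and 61.9% (KO), and RPB1 at 38.4% and 50.2%. The KO lists of both were the longer, and equal list lengths were not tested within these classes. H3K27ac was found at 79 retained regions and 1 lost region in WT. Where lost regions did carry Ser5P in WT, its score was the higher, with a median of 703 against 251.

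Polycomb proteins showed no single order between the classes. Suz12 in WT stood at 66.8% of retained and 68.3% of lost regions in experiment 1, and at 83.9% and 83.2% in experiment 2. In KO the shares were 74.0% and 63.6% in experiment 1, and 80.1% and 70.5% in experiment 2. Ring1b stood at 91.8% of retained and 87.3% of lost regions in WT experiment 1, and at 88.5% and 71.8% in KO. In experiment 2, where the lists differed most in length, it stood at 30.8% and 36.6% in WT, and at 66.4% and 46.8% in KO. H3K27me3 in KO experiment 2 was present at 82.9% of retained and 77.9% of lost regions. Re-ChIP windows in either order were found at 88.5% of retained and 72% of lost regions.

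**Figure D4:**
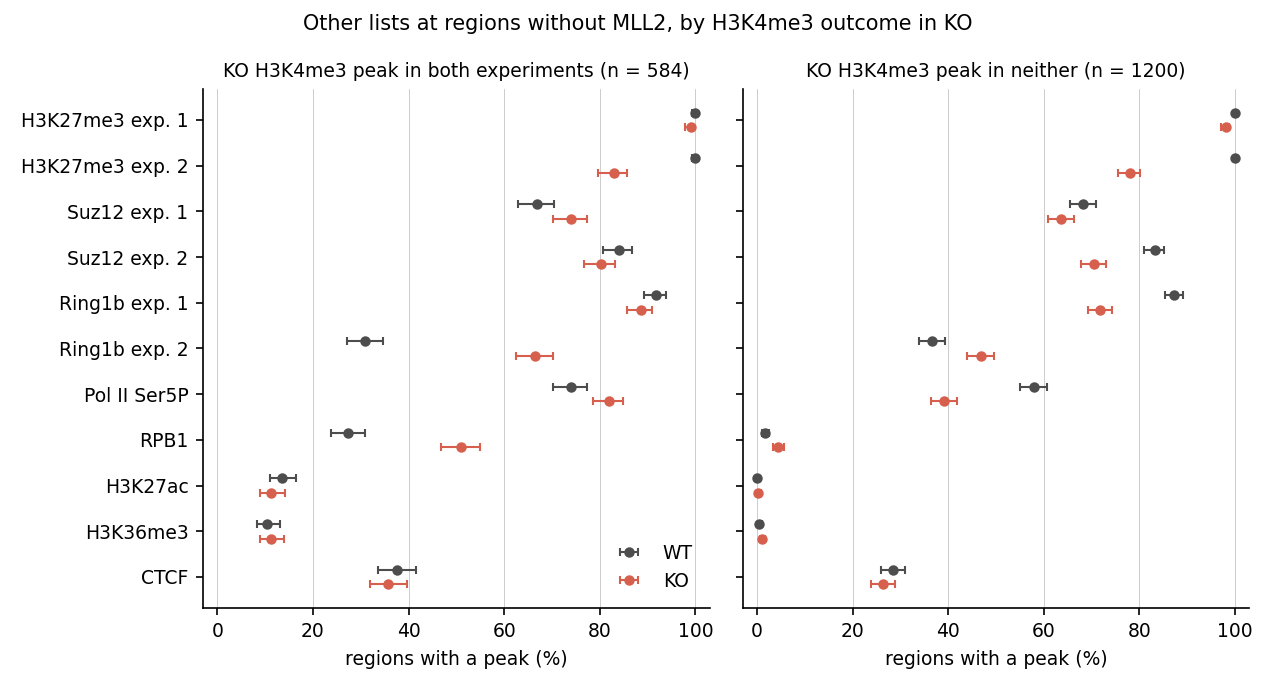
Share of regions without MLL2 that hold a peak (x axis, percent) in each list (y axis), for 584 regions with a KO H3K4me3 peak in both experiments (left) and 1200 with none (right); black points are WT, red points KO, and bars are 95% Wilson intervals over regions. Ser5P stands at 74.0% and 81.8% in the left panel and at 57.8% and 39.1% in the right one.

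At like width the contrasts in polymerase between genotypes were still present, while those in Polycomb proteins in KO were not. From 1500 to under 2000 bp there were 159 retained and 341 lost regions. Ser5P was found at 56.0% (WT) and 71.1% (KO) of the retained, and at 65.7% and 45.5% of the lost, so that lost regions of this width had it more often in WT. RPB1 stood at 19.5% and 37.1% of the retained, and at 0.587% and 3.81% of the lost. CD H3K4me3 was present at 93.7% of the retained and 63.0% of the lost. CTCF differed little, at 25.8% and 25.5% in WT.

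Suz12 was the more common at lost regions of this width in both genotypes. In WT it stood at 76.5% of lost against 58.5% of retained regions in experiment 1, and at 90.0% against 78.0% in experiment 2. In KO it stood at 73.9% against 67.3% in experiment 1 and at 81.2% against 71.7% in experiment 2. Ring1b in experiment 1 stood at 94.1% of lost and 89.3% of retained regions in WT, and at 80.1% and 80.5% in KO. H3K27me3 in KO experiment 2 was present at 81.5% of the lost and 75.5% of the retained, the opposite order to that over all widths. Of the re-ChIP orders, windows with H3K27me3 first were found at 79.2% of the lost and 73.6% of the retained, and windows with H3K4me3 first at 56.3% and 70.4%.

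Retained regions were also the more open. They had an ATAC-seq peak in 40.4%, 51.7% and 47.9% of cases in WT and in 39.9%, 48.5% and 51.0% in KO. Lost regions had one in 20.9%, 28.3% and 23.4% in WT and in 10%, 19.1% and 21.1% in KO. The retained were above the lost in 6 of 6 libraries, by 19.5, 23.4 and 24.5 percentage points in WT and by 29.9, 29.4 and 29.9 in KO. From 1500 to under 2000 bp the gaps were smaller, at 4.55, 9.88 and 11.2 in WT and 21.0, 14.4 and 18.5 in KO. Since KO peaks of H3K4me3 chose the classes, the gaps are given with no test between genotypes.

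Some other WT lists also ordered the KO outcome, while Suz12 went in opposite directions in the 2 experiments. Regions with re-ChIP windows in both orders held a KO H3K4me3 peak in 57.4% (experiment 1) and 39.7% (experiment 2) of cases, those with windows in neither order in 20.9% and 16.5%. Regions with Suz12 in both WT experiments (1393) stood at 41.2% and 28.1%, those with Suz12 in neither (309) at 35.3% and 30.1%. The 192 regions with a WT RPB1 peak stood at 89.1% and 83.9%, those without one at 35.4% and 23.5%. The 87 with WT H3K27ac stood at 98.9% and 90.8%, those without it at 37.9% and 26.5%. By distance from an MLL2 peak there was no steady order, with 33.3% at 48 regions within 1000 bp, 46.5% at 765 regions from 20000 to 100000 bp and 29.3% at 321 regions farther away, in experiment 1. The farthest regions were the most open in WT, with a mean ATAC-seq share of 53.7% over the 3 libraries against 13.2% within 1000 bp.

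Single regions show both ends of this range, picked by fixed orders of width or score. The widest without a KO H3K4me3 peak in either experiment was chr3:45179578-45186199, of 6622 bp. Its WT H3K4me3 score was 3100 in both experiments, its Suz12 score was 3100 in both genotypes and experiments, and its Ser5P score was 3100 in WT and 517 in KO. It lay 1065144 bp from the nearest MLL2 peak, and the CD library still had an H3K4me3 peak there, with a score of 560 against 3100 in V6.5 wild type. Of the next 4 by width, chr14:67850336-67855145, chr9:99768640-99773390 and chr5:108151886-108156450 also held Suz12 and Ring1b scores of 3100 in both genotypes of experiment 1. At those 3 the Ser5P score was 3100 in WT and 1366, 892 and 237 in KO. The second widest, chr10:79773303-79778905, held an RPB1 peak with scores of 1923 in WT and 2901 in KO.

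Among regions with KO peaks in both experiments, 5 were named for the highest WT H3K4me3 scores in experiment 2, so that a lower KO score there was favoured by the choice. At chr2:150492353-150494782 the experiment 1 H3K4me3 score was 3100 in WT against 1826 in KO, and the experiment 2 score 3230 against 658. At chr11:83662885-83667771 it was 3100 and 311 in experiment 1, and 3206 and 79.1 in experiment 2, beside Suz12 scores of 3100 in both genotypes of experiment 1. Scores are comparable only loosely between lists, since each library's depth enters them.

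Regions with the strongest H3K27ac differed from the rest. The widest of all, chr5:120117618-120138833, of 21216 bp, had H3K4me3 scores of 3100 in both genotypes and experiments. Its H3K27ac score was 3100 in WT and 1269 in KO, and its H3K27me3 score 523 and 2667 in experiment 1. In experiment 2 its KO H3K27me3 score was 66.9, little above the WT score. Experiment 1 KO scores of H3K27me3 were also higher at the other 4 regions in this order. In experiment 2 the score was higher in KO only at chr4:120711716-120716066 (59.6 and 79.4). It was lower at chr16:31930728-31936262 (239 and 200). At chr3:121128102-121135867 and chr11:119250746-119258691, with WT scores of 65.3 and 96.7, there was no KO peak in experiment 2. The KO H3K27me3 list of experiment 1 was the longer, with 31020 peaks against 19820. At the widest region a Ser5P peak with a score of 2474 in WT had no KO peak, while RPB1 scored 2493 and 3100. Of the other 4 in this order, H3K27ac scored lower in KO at chr4:120711716-120716066 (2967 and 1291), chr3:121128102-121135867 (2366 and 1457) and chr11:119250746-119258691 (1875 and 667), and higher at chr16:31930728-31936262 (1686 and 3017).

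A peak in the KO MLL2 list was found at 1 region, chr13:55926301-55928407, with a score of 94.8. It lay 3343 bp from the nearest WT MLL2 peak, had H3K4me3 scores of 848 and 579 in WT and no H3K4me3 peak in KO or CD. Among the 5 regions with the highest WT Suz12 scores in experiment 2, 3 had no KO H3K4me3 peak (chr15:102757212-102758366, chr4:129664440-129666153 and chrX:95343305-95347050). The other 2 had one in both experiments, with scores of 85.2 and 85.7 at chr12:112683265-112684818 and 3100 in both at chr7:150644377-150647985.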

How the data were processed

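Peaks were deposited by the authors as 1 list per library with a score per peak. Reads were aligned with Bowtie to mm9, per the submitters' processing notes; the names in the lists are those of MACS, per the file headers and peak names, while the sources used here give no version, input or threshold. Re-ChIP lists hold 100 bp windows with a score of 1 or more. FPKM values of undifferentiated cells were deposited by the authors after TopHat and DESeq2, per the submitters' processing notes, and were used for marker genes only. Whether the spike-in chromatin of some ChIP libraries scaled the lists is not stated in those notes.

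The WT H3K4me3 list of experiment 1 gave the regions, and a region held a peak when 1 bp or more overlapped. Shares carry 95% Wilson intervals over regions, which are not replicates. Libraries were compared with exact permutation tests where a genotype had 2 or more; other comparisons have no test. "All regions" is the share over every region of the WT list. Overlaps matched bedtools 2.31.1 in 40 of 40 lists, and planted shares were recovered on simulated lists. Computation used Python 3.11.15, numpy 2.4.6 and pandas 2.3.3.

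Members, lists and tests were chosen with earlier results of these data known. Named regions were the 5 widest without a KO H3K4me3 peak, the 5 highest by WT H3K4me3 score in experiment 2 among those with KO peaks in both experiments, the 5 highest by WT H3K27ac and by WT Suz12 (experiment 2), and any with a KO MLL2 peak. Alternatives were an overlap of 0.5 of the shorter interval, equal numbers of top peaks, the higher-scoring 50% of each list, bivalence from a single experiment, a margin of 1000 bp around MLL2 peaks, regions resized to 2000 bp and regions of like width (both added after the data were seen), and leaving out libraries. The ATAC-seq replicate numbers are not said to pair the samples. Correlations of deviations within numbered pairs were 0.0497, -0.00525 and -0.00329, which cannot exclude that libraries of the same number were prepared together. RNA-seq beyond marker genes and the targeted gene, PRO-seq and Hi-C were not analysed here, since regions were not tied to genes.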

Additional observations from a re-analysis of the deposited data

How the results depend on the processing

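Peak lists carry no depth, so a missing peak is a missing call, and most targets have 1 library per genotype. Of 138 values recomputed under alternatives, 102 kept their direction and side of the threshold or moved little, 20 moved, 10 changed sign and 6 lost the threshold; the cause was not tested unless stated.

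With bivalence taken from experiment 1 alone, the differences in percentage points were -62.9 for KO H3K4me3, -49.1 for KO H3K4me3 without minus with MLL2, -0.26 for KO H3K27me3, -40.4 and -17.4 for CD H3K4me3 and H3K27me3, 2.23 for Ser5P, -1.22 for Ring1b and -1.07 for the ATAC-seq gap between genotypes, and the re-ChIP share was 52.1%. With equal numbers of top peaks they were -54.5 for KO H3K4me3, -19.1 for CD H3K4me3, -21.0 for Ser5P, 4.48 for RPB1, 0.49 for H3K27ac and -4.62 for Ring1b. With the higher-scoring 50% of each list they were -53.6 for KO H3K4me3, -31.5 for its class difference, -2.46 for KO H3K27me3, -50.1 and -9.00 for CD H3K4me3 and H3K27me3, -13.4 for Ser5P, 5.12 for RPB1 and -0.52 for Ring1b, with a re-ChIP share of 52.6%. H3K27me3 was 1.75 under an overlap of 0.5 of the shorter interval and -8.90 with regions of 2000 bp. For regions from 1500 to under 2000 bp wide, KO H3K4me3 without minus with MLL2 was -21.2. Bivalence from experiment 2 alone and the 1000 bp margin changed no direction.

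Leaving out each library gave -7.58 to -2.05 for the ATAC-seq share, -36.6 to -35.2 for the gap to regions with MLL2 (exact p = 0.0625 throughout, the smallest that 5 libraries give) and -1.54 to 1.77 for the change of that gap between genotypes, which changed sign without KO replicate 1 (-1.54) and without WT replicate 3 (-0.13). Leaving out an experiment gave -9.39 to -0.15 for Suz12 and -10.6 to 18.5 for Ring1b, which changed sign without experiment 2. With a replicate block, by an exact sign flip of the 3 numbered pairs, the ATAC-seq differences of -5.38 and 0.42 had p = 0.25 and 0.75, where 0.25 is the smallest possible. Whether libraries of the same number were prepared together is not known.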
